A study of Mus musculus with 10 samples.

Results

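The VEGF and angiopoietin axis was followed in skin wounds of diabetic mice through 10 genes, namely the ligand genes Vegfa, Angpt1 and Angpt2, the receptor genes Kdr, Flt1, Nrp1 and Tek, and the endothelial genes Pecam1, Cdh5 and Plvap. Each gene was read from the brightest array feature that the platform annotation assigns to that gene alone, brightness being the mean over all 10 arrays. Of the 10 genes, 9 had such a feature, among 30142 genes with one on the array. The annotation gives Nrp1, a co-receptor of VEGF, a feature shared with the microRNA gene Mir1903, so no value is given for it. All 9 measured genes lay above the level filter of 4.17 on the log2 scale that left 17361 genes for testing, and none had a second one-gene feature.

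The animals were male db/db mice (BKS(D)-Leprdb/JOrlRj, C57BL/6 background), obese and hyperglycaemic because the leptin receptor does not work, and 11 weeks old before a week of single housing. Both groups carried this genotype, so no mouse with a working receptor was compared. Each mouse received 2 full-thickness back wounds from a 4 mm punch. Right after wounding, the edge of each wound received 0.5 nmol of a mimic in 100 µl, mixed with the delivery reagent MaxSuppressor In Vivo RNA-LANCEr II. This was miR-132 mimic in 5 mice and control mimic in 5 others. Mimics are synthetic stand-ins for a mature microRNA, which lowers messenger RNAs with matching sites. Wound-edge RNA was taken 6 days after injury and measured on Affymetrix Clariom D arrays, 1 per mouse. The labels name 5 mice per group and do not say whether both wounds of a mouse entered its sample.

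Vascular endothelial growth factor A, made in wounds mainly by keratinocytes and macrophages and raised by low oxygen, acts on blood vessels through the receptor tyrosine kinase encoded by Kdr, while the Flt1 product binds it tightly and mostly limits it. Angiopoietin 1, from cells around the vessel, activates the Tek receptor (Tie2) and steadies vessels, and angiopoietin 2, released by endothelium, usually opposes it and loosens them for sprouting. New vessels fill the granulation tissue of a healing wound, and diabetic wounds are known for poor vessel growth.

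The mature sequences of mouse miR-132 are shown because the mimic of this microRNA is what separates the groups. They come from RefSeq (GRCm38.p6), capitals mark the seed (bases 2 to 8), and the sources used here do not say which arm the mimic carried.
mmu-miR-132-3p (chr11:75173723-75173744, plus strand): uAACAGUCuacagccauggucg
mmu-miR-132-5p (chr11:75173686-75173707, plus strand): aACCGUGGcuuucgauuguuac

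For Vegfa, the member with the largest group difference, and for Kdr and Flt1, its receptor genes, the 250 bases before the transcript start are shown from RefSeq (GRCm38.p6). Capitals mark GGGCGG (the Sp1 box), GCGTG and ACGTG (cores of the hypoxia response element) and TATAAA (the TATA box), on either strand and without overlap of these matches.
Vegfa (chr17:46032378-46032627, minus strand): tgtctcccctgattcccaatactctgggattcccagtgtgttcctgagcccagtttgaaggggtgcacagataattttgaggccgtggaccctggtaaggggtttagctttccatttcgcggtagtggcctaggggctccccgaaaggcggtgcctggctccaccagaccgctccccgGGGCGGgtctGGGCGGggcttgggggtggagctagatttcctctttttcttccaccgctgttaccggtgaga
Kdr (chr5:75978456-75978705, minus strand): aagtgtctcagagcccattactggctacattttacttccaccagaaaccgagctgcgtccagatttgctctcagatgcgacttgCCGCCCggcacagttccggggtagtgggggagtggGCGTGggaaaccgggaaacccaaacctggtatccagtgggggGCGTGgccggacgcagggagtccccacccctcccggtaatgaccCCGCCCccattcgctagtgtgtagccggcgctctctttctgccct
Flt1 (chr5:147726012-147726261, minus strand): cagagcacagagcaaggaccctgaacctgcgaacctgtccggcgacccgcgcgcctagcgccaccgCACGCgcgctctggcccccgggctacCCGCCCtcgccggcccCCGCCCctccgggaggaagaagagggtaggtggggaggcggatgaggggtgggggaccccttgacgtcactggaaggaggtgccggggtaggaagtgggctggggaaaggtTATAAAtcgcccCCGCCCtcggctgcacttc

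The promoter table held 5 of the 10 members, with 2 starts for Vegfa, of which the upstream one is shown. In the window from 250 bases before to 50 after the start, the shown Vegfa promoter had 2 GGGCGG matches, at -72 and -62, and no GCGTG or ACGTG. Letters farther upstream were not searched, so a lack of hypoxia response elements at Vegfa cannot be read from this. Kdr had 2 GGGCGG and 2 GCGTG matches. The other Vegfa start, not shown, lies downstream of the shown one, within the gene. The bases before it held 1 GGGCGG, 1 GCGTG (at -218) and 1 ACGTG match (at -211). These letters come from inside the gene, and whether they act as a promoter was not tested. Flt1 had 3 GGGCGG matches, 1 GCGTG match and a TATAAA beginning at -31. Of all 32851 promoters of this length, 35.7% held GGGCGG, 32.4% GCGTG, 19.6% ACGTG and 13.6% TATAAA. The ETS letters searched, a doubled ETS core or CCGGAAG (9.78% of promoters), and the AP-1 letters TGANTCA (7.81%) were in none of the 3 windows, which says only that these letters are not there. The Tek promoter held none of the letters searched.

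Arrays differed in the spread of their signals. The span between the outer deciles of all features was 4.64 to 4.89 on control arrays and 4.25 and 4.46 on miR-132 replicates 2 and 5, against 4.72 to 4.79 on the other miR-132 arrays. Background probes averaged 3.52 on these 2 arrays and 3.28 to 3.43 on controls. Hybridisation spike-ins averaged 10.9 to 10.98 on miR-132 replicates 3 to 5 and 10.43 to 10.61 on controls. Of 14 measured endothelial markers, which include members, 14 lay above the level filter. The signal of one gene is not set against that of another here, since features differ in their probes.

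Wounds given miR-132 averaged less Vegfa RNA, 1.58-fold lower than control wounds, and 5 of the 6 endothelial receptor and surface genes averaged lower, by up to 1.26-fold for Cdh5. None of these differences passed the test. Angpt1 averaged 1.19-fold higher and Angpt2 1.01-fold higher. Of the 9 members, 6 averaged lower, 2 higher and 1, Kdr, was equal in both groups, where 53.8% of all genes tested averaged lower. After median centring 8 averaged lower, and with quantile normalization and miR-132 replicate 3 left out, 3 did. By limma with Benjamini-Hochberg adjustment, 0 of 9 passed an adjusted p of 0.05, as did 0 of all 17361 genes (0%), the smallest adjusted p among them being 0.593. With no adjustment, limma gave a p under 0.05 for 0 of 9 members against 8.13% of all genes (1412 genes, 5.7% lower and 2.44% higher). The median difference of the members was -0.25 on the log2 scale, and that of all genes tested -0.02. Leaving out control replicate 4 gave a members' median of -0.09, and leaving out control replicate 2 gave -0.35. The groups overlapped for 9 of 9 members, while they did not overlap for 0.945% of all genes. In bulk tissue, fewer cells of a type and less RNA per cell cannot be told apart.

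**Figure D1:**
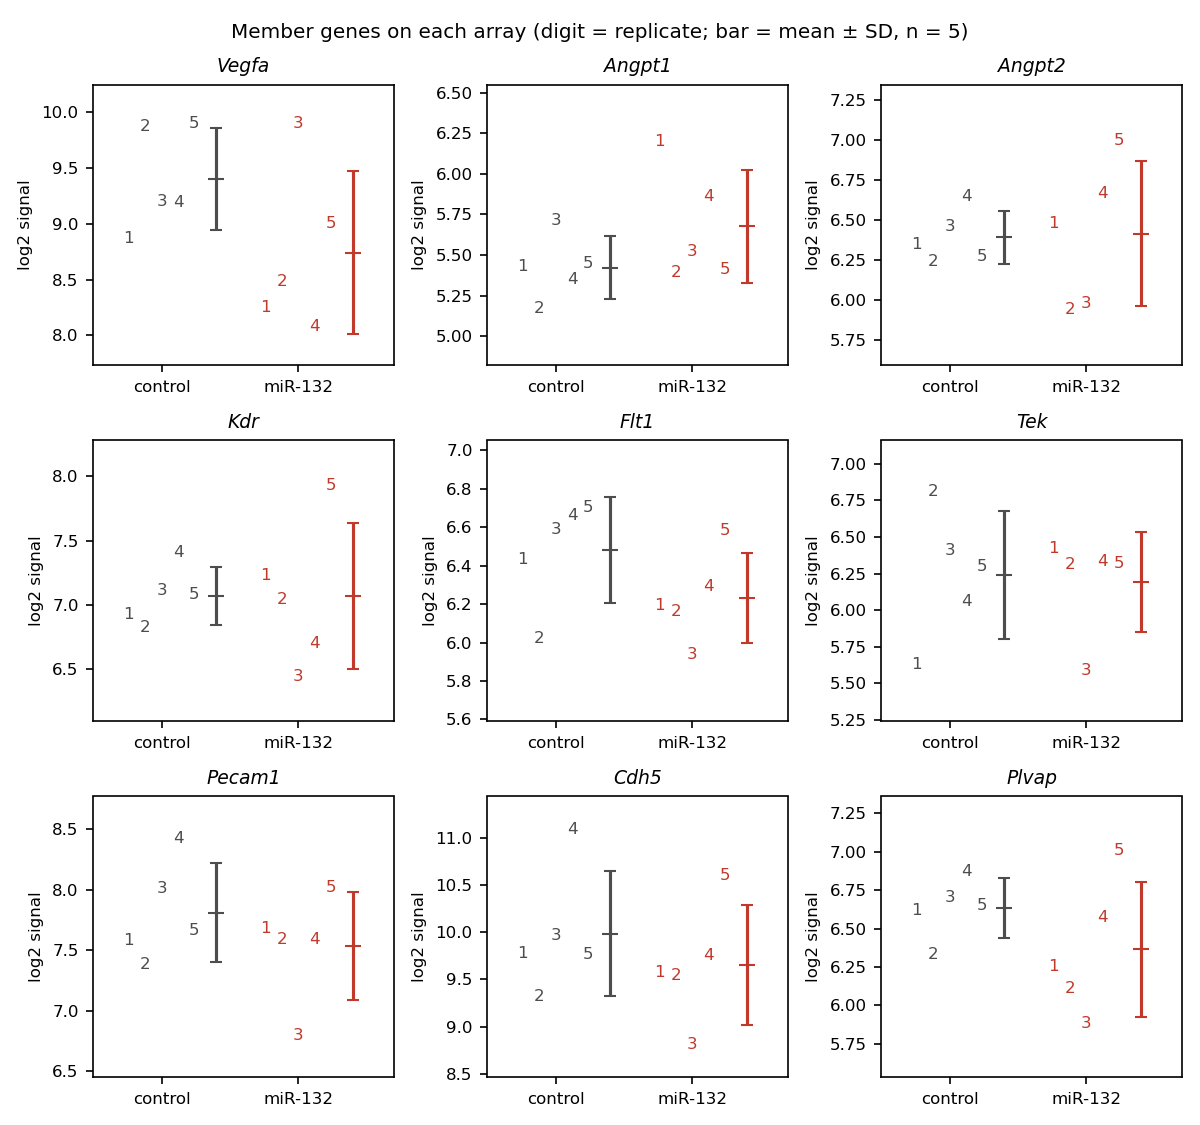
Log2 signal of the 9 member genes on each array, with controls in grey and miR-132 in red. Digits give the replicate, and bars the mean ± SD (n = 5). The groups overlap in every panel, and miR-132 replicate 3 is the lowest of 10 arrays for the 6 endothelial receptor and junction genes but reaches the top of the Vegfa range at 9.90.

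Among the ligands, Vegfa measured 8.87, 9.87, 9.20, 9.19 and 9.90 in control wounds 1 to 5, and 8.25, 8.48, 9.90, 8.08 and 9.0 in miR-132 wounds 1 to 5. Replicates 1, 2 and 4 with miR-132 lay below every control, while replicate 3 equalled the highest control. Controls averaged 9.41 ± 0.46 and miR-132 wounds 8.74 ± 0.73 (SD, n = 5 each). The log2 difference was -0.66 ± 0.36 (SE) with a 95% interval of -1.47 to 0.14. The interval spans 0.361 to 1.1 times the control level. The difference did not pass limma (unadjusted p of 0.0955, adjusted p of 0.654), and the exact two-sided permutation p was 0.135. Without miR-132 replicate 3 it was -0.95, with an unadjusted p of 0.00728 and an adjusted p of 0.168, still short of the threshold. With the hybridisation spike-ins as a covariate it was -1.26 (adjusted p of 0.53). Those spike-ins were themselves higher on 3 miR-132 arrays, so covariate and treatment are partly confounded.

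Angpt1, the agonist of Tek, measured 5.43, 5.17, 5.71, 5.35 and 5.45 in controls and 6.20, 5.39, 5.52, 5.86 and 5.41 with miR-132. Replicates 1 and 4 with miR-132 lay above every control, and the other 3 within their range. Its log2 difference was 0.25 ± 0.17 (SE), with a 95% interval of -0.11 to 0.62 and an adjusted p of 0.701 by limma. Without miR-132 replicate 1 the difference was 0.12. That array also had the highest mean of 6 adipocyte markers, 11.10 against 6.57 to 8.92 on the other miR-132 arrays and 6.58 to 9.65 on controls. All 6 markers averaged higher with miR-132, and their part in the Angpt1 value was not tested.

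Angpt2, the antagonist, measured 6.35, 6.24, 6.46, 6.65 and 6.27 in controls and 6.48, 5.94, 5.98, 6.67 and 7.0 with miR-132. The miR-132 arrays fell on both sides of the controls, with replicates 2 and 3 below all of them and replicates 4 and 5 above. The SD was 0.17 in controls and 0.45 with miR-132, and the log2 difference was 0.02 ± 0.20 (SE, 95% interval -0.43 to 0.47, limma's adjusted p of 0.992). Its sign turned in several settings, to -0.13 with the spike-in covariate.

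The balance of the 2 Tek ligands was taken within each array as Angpt2 minus Angpt1, a difference of log2 signals whose absolute size carries no meaning. It was 0.92, 1.07, 0.75, 1.30 and 0.82 in controls and 0.28, 0.55, 0.46, 0.81 and 1.59 with miR-132. Replicates 1, 2 and 3 with miR-132 lay below every control and replicate 5 above every control. The group difference was -0.23, with an exact two-sided permutation p of 0.381 over 252 splits of 5 against 5 mice. Without miR-132 replicate 5 it was -0.45, with an exact permutation p of 0.0317, so whether it passes turns on that 1 array.

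Among the receptors, Kdr, the main signalling receptor of VEGF, measured 6.92, 6.82, 7.11, 7.41 and 7.08 in controls and 7.23, 7.04, 6.44, 6.70 and 7.93 with miR-132. Replicate 5 with miR-132 was the highest of all 10 arrays and replicate 3 the lowest. Both means were 7.07, with SDs of 0.22 and 0.57 (n = 5 each), so the difference was 0.00 ± 0.25 (SE) with a 95% interval of -0.57 to 0.57 (limma's adjusted p of 1). Levels between 0.675 and 1.48 times control lie within that interval. The difference was -0.22 when miR-132 replicate 5 was left out and 0.16 when replicate 3 was.

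Flt1, the decoy-like VEGF receptor, measured 6.43, 6.02, 6.59, 6.66 and 6.70 in controls and 6.19, 6.16, 5.94, 6.29 and 6.58 with miR-132. Of the miR-132 arrays, 4 lay below the control mean, and control replicates 1 and 2 lay within the miR-132 range. The log2 difference was -0.25 ± 0.15 (SE, 95% interval -0.59 to 0.09, limma's adjusted p of 0.685). Leaving out control replicate 2 gave -0.36 (limma's unadjusted p of 0.0177, adjusted p of 0.633), and leaving out miR-132 replicate 3 gave -0.17. It was also -0.17 after quantile normalization, and -0.09 with both changes.

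Tek, the angiopoietin receptor, measured 5.63, 6.81, 6.41, 6.06 and 6.30 in controls and 6.42, 6.31, 5.59, 6.33 and 6.32 with miR-132. Replicates 1, 2, 4 and 5 with miR-132 lay between 6.31 and 6.42, with replicate 3 apart at 5.59, and control replicate 1 was similarly low. The log2 difference was -0.05 ± 0.23 (SE, 95% interval -0.56 to 0.46, limma's adjusted p of 0.972). It turned to 0.10 without miR-132 replicate 3 and to 0.01 after quantile normalization.

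The remaining 3 members are surface proteins of endothelium. Cdh5 encodes VE-cadherin, the adhesion molecule of endothelial junctions. It measured 9.77, 9.32, 9.97, 11.09 and 9.76 in controls and 9.57, 9.54, 8.81, 9.75 and 10.60 with miR-132. Control replicate 4 and miR-132 replicate 5 stood above the other 8 arrays, and miR-132 replicate 3 below them. The log2 difference was -0.33 ± 0.38 (SE, 95% interval -1.19 to 0.53, limma's adjusted p of 0.837). Without control replicate 4 it was -0.05, without miR-132 replicate 3 -0.12, and without miR-132 replicate 5 -0.56.

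Pecam1 encodes CD31, which endothelium shares with platelets and leukocytes. It measured 7.58, 7.38, 8.01, 8.42 and 7.66 in controls and 7.68, 7.59, 6.80, 7.59 and 8.02 with miR-132. As for Cdh5, control replicate 4 was the highest array and miR-132 replicate 3 the lowest. Here miR-132 replicate 5, at 8.02, was nearly level with control replicate 3, at 8.01. The log2 difference was -0.27 ± 0.25 (SE, 95% interval -0.84 to 0.29, limma's adjusted p of 0.788). It was -0.09 without miR-132 replicate 3, -0.12 without control replicate 4 and -0.40 without miR-132 replicate 5.

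Plvap encodes the protein of the diaphragms that span endothelial pores. It measured 6.62, 6.33, 6.70, 6.87 and 6.65 in controls and 6.25, 6.11, 5.88, 6.57 and 7.01 with miR-132. Replicates 1, 2 and 3 with miR-132 lay below every control, and replicate 5 above every control. The log2 difference was -0.27 ± 0.20 (SE, 95% interval -0.72 to 0.18, limma's adjusted p of 0.738). Without miR-132 replicate 5 it was -0.43 (limma's unadjusted p of 0.0196, adjusted p of 0.832), and without miR-132 replicate 3 it was -0.15.

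The range over 5 mice was wider with miR-132 than in controls for 7 of the 9 members, Flt1 and Tek being the exceptions. For Cdh5 the ranges were nearly equal, 1.79 with miR-132 and 1.77 in controls. Its SD was the smaller with miR-132, at 0.64 against 0.66. By SD, over all genes tested, the median was larger with miR-132, at 0.23 against 0.17 in controls. The share of all genes with a wider range was not counted, so the 7 of 9 cannot be set against it. The mean log2 signal of Kdr, Flt1, Tek, Pecam1, Cdh5 and Plvap was 7.16, 7.11, 7.46, 7.75 and 7.36 in controls and 7.22, 7.12, 6.58, 7.20 and 7.74 with miR-132. On this mean, miR-132 replicate 3 was the lowest of all arrays, and miR-132 replicate 5 and control replicate 4 were nearly level at the top.

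**Figure D2:**
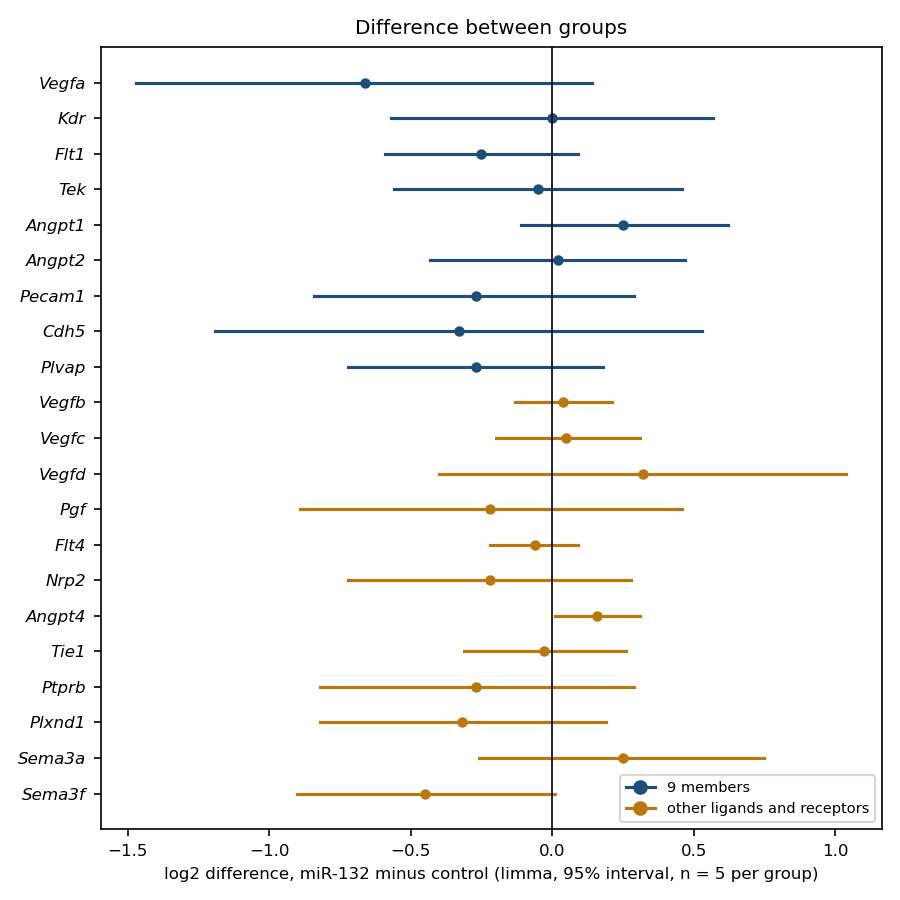
Log2 difference between group means, miR-132 minus control, with limma's 95% interval (n = 5 per group), for the 9 members in blue and 12 other ligands, receptors and co-receptors in orange. The interval of each member includes 0, and that of Angpt4 alone among the others lies on one side of it.

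Of the 12 other ligands, receptors and co-receptors of the pathway, all measured, 7 averaged lower and 5 higher, with a median of -0.04 and 0 past limma's adjusted threshold. Other VEGF family ligands differed little, by 0.04 ± 0.08 for Vegfb, 0.05 ± 0.11 for Vegfc, which drives lymphatic growth, and -0.22 ± 0.30 (SE, n = 5 per group) for Pgf, a ligand of Flt1. Vegfd, a further lymphatic ligand, differed by 0.32 ± 0.32 and ranged from 7.09 to 9.05 with miR-132 but 7.12 to 7.75 in controls. Without miR-132 replicate 4, which held the 9.05, Vegfd differed by 0.02. Without that array Pgf differed by -0.04. Flt4, the lymphatic VEGF receptor, differed by -0.06, and Nrp2, the partner of Nrp1, by -0.22, or -0.05 without control replicate 4. Angpt4 had the smallest p of the 12 (0.16 ± 0.07 (SE), limma's unadjusted p of 0.0359, adjusted p of 0.593). Its means of 4.33 and 4.49 lay just above the level filter, and all 5 miR-132 arrays were above the control mean. The difference was 0.10 after quantile normalization (unadjusted p of 0.25) and 0.08 after median centring (unadjusted p of 0.387).

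Tie1, the orphan partner of Tek, differed by -0.03, and Ptprb, the endothelial phosphatase that dephosphorylates Tek, by -0.27, or -0.07 without miR-132 replicate 3. Among the semaphorin genes and their receptor, whose products share the neuropilins or guide vessels, Plxnd1 differed by -0.32, Sema3a by 0.25 (0.11 without miR-132 replicate 1) and Sema3f by -0.45 ± 0.20 (SE). Sema3f did not pass (limma's unadjusted p of 0.0535, adjusted p of 0.62), with 4 of 5 miR-132 arrays below the control mean.

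Of 12 genes known to be induced by VEGF or to mark sprouting tip cells, 6 averaged lower and 6 higher, with a median of -0.04 and 0 past the adjusted threshold. The 3 with an unadjusted p under 0.05 by limma were all lower with miR-132, against 5.7% of all genes. They were the early growth response factor gene Egr3 (-0.63 ± 0.16), the calcineurin regulator gene Rcan1 (-0.48 ± 0.20) and the MAP kinase phosphatase gene Dusp5 (-0.56 ± 0.25, SE, n = 5 per group). All 5 miR-132 arrays lay below the control mean for each of these. Egr3 has 3 one-gene features, of which the brightest, used here, is named as unmapped. Over the mean of all 3 its difference was -0.38, with an unadjusted p of 0.0564 by limma. After quantile normalization, limma's unadjusted p was 0.12 for Rcan1, 0.0653 for Dusp5 and 0.00328 for Egr3 on its brightest feature. The exact two-sided permutation p was 0.0635 for Rcan1, 0.0873 for Dusp5 and 0.0317 for Egr3. Many cell types induce these 3 genes, as growth factors other than VEGF do. Cxcr4, a chemokine receptor gene that leukocytes also express, differed by -0.61 ± 0.44, or -0.24 without control replicate 4, and the protease gene Adamts1 by -0.12. The tip-cell gene with the largest positive difference was Esm1, at 0.32, chosen here after its value was seen.

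The endothelial members were set beside a list of 24 further endothelial genes. Of these, 23 were measured and 22 were above the level filter. Of the 22, 13 averaged lower and 9 higher, their median was -0.04, and 0 had an unadjusted p under 0.05 by limma, against 8.13% of all genes. The differences ran from -0.25 for Eng, an endothelial co-receptor of TGF-beta, to 0.25 for Emcn, a sialomucin of small vessels. Cd34 differed by 0.13 ± 0.48, Cd93 by -0.17 ± 0.40 and Eng by -0.25 ± 0.24 (SE), and without control replicate 4 Cd93 was at 0.0045 and Eng at -0.13. The list mean ranged from 5.79 to 6.04 in controls and from 5.56 to 6.18 with miR-132, with miR-132 replicate 3 again lowest and replicate 5 highest.

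The endothelial adhesion genes that recruit leukocytes averaged lower for 4 of 5, with a median of -0.12 and 0 past adjustment. Icam1 differed by -0.31 ± 0.11 (SE, limma's unadjusted p of 0.0203, adjusted p of 0.593), with all 5 miR-132 arrays below the control mean. Selp, which encodes P-selectin, differed by -0.50 ± 0.25, and Vcam1 by -0.07 ± 0.33. Icam1 is also made by keratinocytes and leukocytes. Neutrophil markers averaged lower for 6 of 6 genes in the same wounds, with a median of -0.44 and 2 of the 6 at the upper signal limit on some arrays, and their part in the Icam1 value was not tested.

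Genes of the hypoxia pathway, which controls Vegfa transcription, averaged lower for 11 of 12, against 53.8% of all genes tested. Their median was -0.26, with 0 past adjustment. By limma's unadjusted p under 0.05, 2 of the 12 were lower, against 5.7% of all genes. Slc2a1, the glucose transporter GLUT1, differed by -1.45 ± 0.65, Ankrd37 by -0.41 ± 0.16 (limma's unadjusted p of 0.0493 and 0.0302, adjusted p of 0.613 and 0.593), Pgk1 of glycolysis by -0.48 and Hif1a itself by -0.26. After quantile normalization, limma's unadjusted p was 0.0943 for Slc2a1 and 0.0511 for Ankrd37. The exact two-sided permutation p was 0.0714 for Slc2a1 and 0.0635 for Ankrd37. Without miR-132 replicate 2 Hif1a differed by -0.03 and Pgk1 by -0.25. Pgk1 has 2 one-gene features, and over their mean its difference was -0.47. The brighter one, used here, bears an identifier of chromosome 12. Whether it reads Pgk1 itself or a copy elsewhere was not tested. Egln3, a hypoxia-induced prolyl hydroxylase gene, differed by -1.17 ± 0.71 (SE) and measured 15.58 on miR-132 replicate 3 against 11.34 to 12.33 on the other miR-132 arrays. Without that array 55 of 17361 genes passed limma, and Vegfa was not among them. Egln3 (-1.91, adjusted p of 0.0388) and Egr3 (-0.78, adjusted p of 0.0405, brightest feature only) were. With quantile normalization as well, 0 genes passed, and both had an adjusted p of 0.0642. A part of this list was already known to average lower in these wounds.

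Inhibitors of angiogenesis split, 3 lower and 3 higher of 6, with a median of -0.04. Thbs1 and Thbs2, which encode thrombospondins, differed by -0.37 ± 0.57 (-0.09 without miR-132 replicate 4) and -0.22 ± 0.44 (0.08 without miR-132 replicate 3), and Serpinf1, which encodes PEDF, by 0.06 ± 0.24 (SE, n = 5 per group). Rasa1, a brake on Ras reported elsewhere as a miR-132 target in endothelium, differed by 0.18 ± 0.25 (SE, limma's adjusted p of 0.862). It measured 9.60 to 10.31 in controls and 9.57 to 10.86 with miR-132, and the groups overlapped widely.

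The members did not vary independently of each other. Each gene's group mean was subtracted, so that a treatment difference could not make a correlation, and the 36 pairs of the 9 measured members were compared over the 10 arrays. Of the 36, 13 had a permutation p for Pearson's r under 0.05 after Benjamini-Hochberg adjustment, and all 13 lay among Kdr, Flt1, Angpt2, Pecam1, Cdh5 and Plvap, where r ran from 0.68 to 0.94 over 15 pairs. For 7 of the 13 Spearman's rho passed as well. The permutation moved values freely over all 10 arrays. It took no account of the group means removed or of unequal spread between groups, so these p-values may be too small. That matters most near the threshold, as for Kdr with Flt1 and Angpt2 with Pecam1 (permutation, adjusted p of 0.0456 each). The tightest pair was Pecam1 with Cdh5, at r of 0.94 and rho of 0.94 (n = 10, permutation p of 8e-05 and 0.00014, adjusted p of 0.00288 and 0.00504). Without control replicate 4 and miR-132 replicate 3, the arrays farthest from the Pecam1 median, r was 0.90.

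Angpt2 with Plvap had r of 0.93 and rho of 0.90 (permutation p of 0.00017 and 0.00083, adjusted p of 0.00306 and 0.0135, n = 10), and r of 0.91 without miR-132 replicates 2 and 5. Cdh5 with Plvap had r of 0.87 and rho of 0.88 (permutation p of 0.00067 and 0.0015, adjusted p of 0.00804 and 0.0135), and r of 0.86 without control replicate 4 and miR-132 replicate 5. Flt1 with Plvap had r of 0.86 and rho of 0.89 (permutation p of 0.00209 and 0.00135, adjusted p of 0.0188 and 0.0135), and r of 0.85 without control replicate 2 and miR-132 replicate 5.

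The relations of Kdr rested more on single mice. Kdr with Pecam1 had r of 0.83 and rho of 0.86 (permutation p of 0.00318 and 0.00214, adjusted p of 0.0191 and 0.0154), and r of 0.73 (adjusted p of 0.142, n = 8, permutation) without miR-132 replicates 3 and 5. Kdr with Plvap had r of 0.79 and rho of 0.65 (permutation p of 0.00903 and 0.0497, adjusted p of 0.0296 and 0.128), and r of 0.22 without those 2 arrays, on which this relation rests. Of the 13 pairs, 4 passed after the 2 farthest arrays were left out of each, and the others rest in part on those arrays.

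Tek and Angpt1 took no part in this pattern, with 0 of their pairs past the threshold. Tek with Cdh5 had r of 0.07 and rho of 0.13 (permutation p of 0.854 and 0.734, adjusted p of 0.946 and 0.88), and r of -0.75 without control replicate 1 and miR-132 replicate 3 (n = 8, permutation p of 0.0288, adjusted p of 0.142). Vegfa correlated below 0 with all 8 other members, from -0.56 with Pecam1 to -0.14 with Tek, none past the threshold. With Pecam1 its rho was -0.30 (permutation p of 0.0955 for r and 0.39 for rho, adjusted p of 0.215 and 0.702), and r was -0.07 without control replicate 5 and miR-132 replicate 3.

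**Figure D3:**
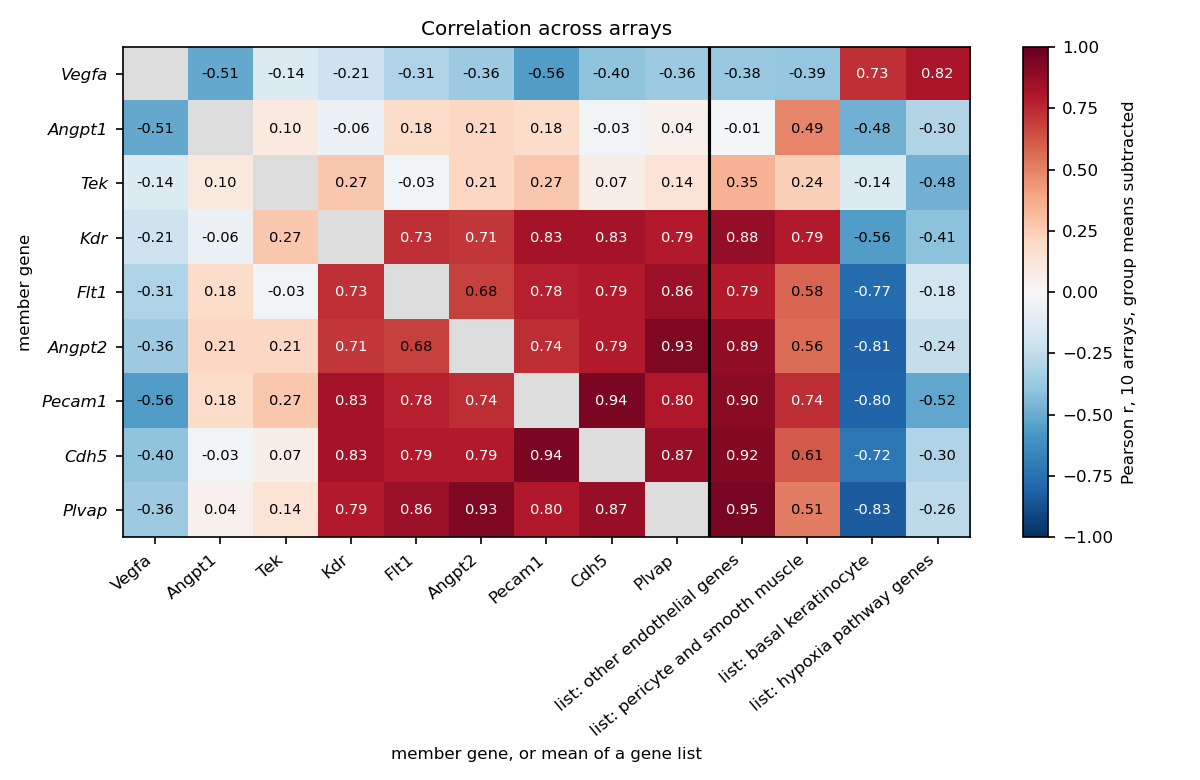
Pearson's r over 10 arrays after subtraction of group means, between the 9 members (left of the line) and between each member and the mean of a gene list (right of it), with red for positive and blue for negative. Kdr, Flt1, Angpt2, Pecam1, Cdh5 and Plvap form a block of 0.68 to 0.94, while Vegfa is positive with the hypoxia and basal keratinocyte lists.

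Each member was also set against the array means of 6 gene lists, a comparison added after the data were seen (54 relations, of which 12 passed an adjusted permutation p of 0.05 for r). Without the 2 farthest arrays, 2 of the 12 still passed, those of Cdh5 with the other endothelial genes and of Kdr with pericyte and smooth muscle markers. The genes compared share a wound sample and the array scaling. The mean of the other endothelial genes, which holds no member, followed Plvap at r of 0.95 and rho of 0.94 (permutation p of 5e-05 and 0.0003, adjusted p of 0.0027 and 0.0054) and Cdh5 at 0.92 and 0.95 (permutation p of 0.00025 and 0.0001, adjusted p of 0.00675 and 0.00324). Without miR-132 replicates 3 and 5, r was 0.84 for Plvap (permutation, adjusted p of 0.099) and 0.91 for Cdh5 (adjusted p of 0.0213). Angpt2 followed it at r of 0.89 and rho of 0.90 (permutation p of 0.00085 and 0.00096, adjusted p of 0.0115 and 0.0104), and at 0.75 without those arrays. Tek did not, with r of 0.35 and rho of 0.19 (permutation p of 0.317 and 0.605, adjusted p of 0.504 and 0.773), and r of -0.12 without them.

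Vegfa followed another list. With the mean of the hypoxia pathway genes, which does not hold Vegfa, it had r of 0.82 and rho of 0.75 (permutation p of 0.00436 and 0.0176, adjusted p of 0.0295 and 0.0794, n = 10). Without miR-132 replicates 1 and 3, r was 0.54 (permutation p of 0.171), so the relation rests in part on these arrays. Before subtraction of group means, the hypoxia mean was 10.08 to 10.50 on controls and 9.47, 9.50, 10.67, 9.82 and 9.83 on miR-132 arrays 1 to 5. The arrays with low Vegfa, miR-132 replicates 1, 2 and 4, were among the 4 lowest on it, and replicate 3 was the highest on it and level with the highest control for Vegfa.

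**Figure D4:**
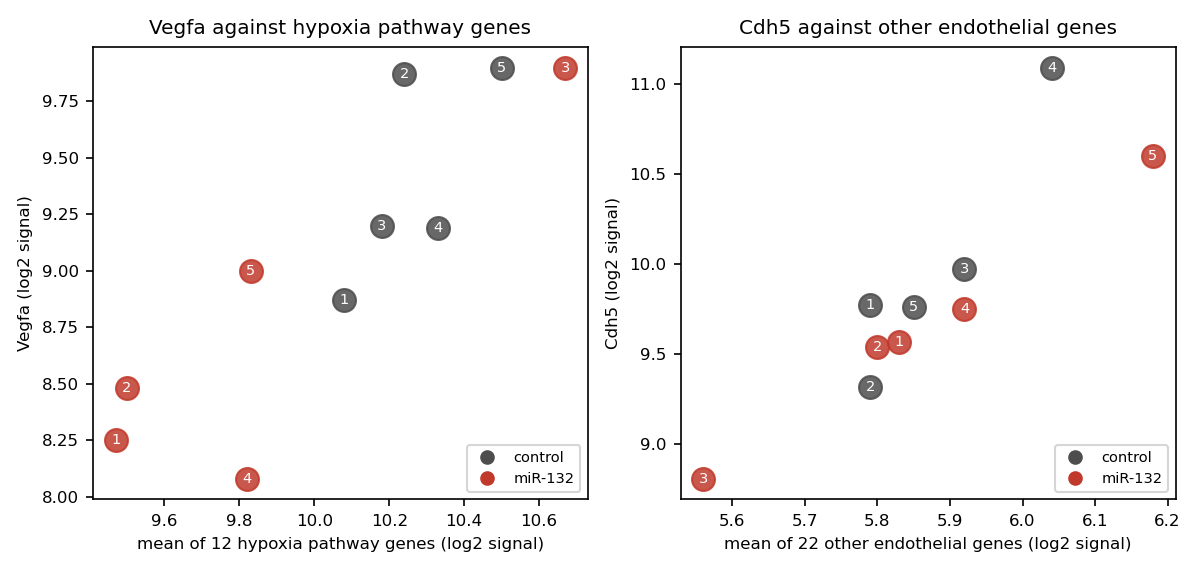
Left, Vegfa against the array mean of 12 hypoxia pathway genes; right, Cdh5 against that of 22 other endothelial genes, all in log2 signal. Points are arrays with their replicate number, grey for control and red for miR-132, and miR-132 replicate 3 is at the top right on the left (10.67 and 9.90) and at the bottom left on the right (5.56 and 8.81).

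Markers of some other cell types moved with some of these values between mice. The basal keratinocyte mean ran against Plvap at r of -0.83 and rho of -0.85 (permutation p of 0.00198 and 0.00263, adjusted p of 0.0182 and 0.0193), at -0.67 without control replicate 2 and miR-132 replicate 3 (permutation, adjusted p of 0.305). Without subtraction of group means, r was -0.40 (permutation p of 0.248), so the relation rests on that step and on those arrays. It ran against Angpt2 at r of -0.81 and rho of -0.87 (permutation p of 0.00449 and 0.00167, adjusted p of 0.0295 and 0.015), at -0.81 without them (adjusted p of 0.118), and with Vegfa at r of 0.73 and rho of 0.55 (permutation p of 0.0161 and 0.105, adjusted p of 0.062 and 0.285), at 0.28 without them. With group means left in, r was -0.69 for Angpt2 (permutation, adjusted p of 0.136) and 0.81 for Vegfa (permutation, adjusted p of 0.0397). The basal keratinocyte mean ranged from 12.35 to 12.92 in controls and 12.01 to 12.71 with miR-132, with 6 of 6 markers averaging lower. Of these 6, 2 reached the upper signal limit on some arrays, where no difference can be read.

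The mean of pericyte and smooth muscle markers, cells that wrap vessels, followed Kdr at r of 0.79 and rho of 0.95 (permutation p of 0.00546 and 0.00012, adjusted p of 0.0295 and 0.00324), and at 0.92 without miR-132 replicates 1 and 5. Of its 11 markers 7 averaged lower, with a median of -0.06. With the macrophage and adipocyte means, 0 of the member relations passed. The part of tissue make-up in the members' values was not tested.

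Genes whose level varied most like the members were ranked by Pearson's r over the 10 arrays, group means subtracted, among 12021 named genes. Nearest to the mean of Kdr, Flt1, Tek, Pecam1, Cdh5 and Plvap were Itga9 (0.975), an integrin chain, Sox4 (0.972), a transcription factor gene, Ptprb (0.952), Tie1 (0.948) and Bahcc1 (0.947). Nearest to Vegfa were Rap1gap (0.964), Dnmbp (0.941), Crb3 (0.940), a polarity protein gene of epithelia, Sprr1a (0.938), a cornified envelope gene of keratinocytes, and Slc66a2 (0.934). These r values were picked as the highest of many and carry no test. Sprr1a differed by -1.02 and Slc66a2 by -0.31 between the groups, and the 5 genes near the endothelial mean by -0.27 to 0.28.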

How the data were processed

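Gene expression in wound-edge skin of 10 db/db mice, 5 given miR-132 mimic and 5 control mimic, was measured on Affymetrix Clariom D arrays from 150 ng of RNA. The submitters' processing notes name RMA and Affymetrix Expression Console 1.4; RMA corrects background, normalizes arrays and summarises probes. The deposited values were read as log2 from their range and common upper limit of 19.93, since no label states the scale. For the features' genome build, the sources used here give none. Arrays give no counts, and their number limits precision.

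All 10 value columns matched a sample, and 0 pairs of arrays were identical. The annotation gave 1 gene symbol to 30604 of 72688 features, several to 2146 and none to 39938. RefSeq gene names (GRCm38.p6) replaced older symbols of 827 features by gene identifier, and of the 12 listed ligands and receptors Vegfd was found as Figf. For 355 genes with several features the brightest was kept. Genes with a mean above 4.17, the median over all features, were tested: 17361 of 30142. limma 3.58.1 in R 4.3.3 (lmFit, eBayes with intensity trend) compared the groups, two-sided, without covariates, with Benjamini-Hochberg adjustment at 0.05. Its procedure was tested on simulated data. Permutation tests of r used 100000 resamples, with values moved freely across both groups after their means were subtracted. Members and lists were chosen with earlier results of these data known. Named genes are all members, all other ligands and receptors, the 3 brightest of each further pathway list and any of those with an unadjusted p under 0.05, Rasa1, and the 5 genes most like Vegfa and the endothelial mean. Alternatives were other filters, normalizations, feature choices, priors, weights, a covariate, a replicate block and left-out arrays.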

Additional observations from a re-analysis of the deposited data

Results flagged for a closer look

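In groups of 5 arrays, 42 measures were checked in both groups for an array far from the others of its group (a gap to the nearest array above 0.71 of the group's range), and 9 of 84 groups had one, where chance gives about 1 in 20. On miR-132 replicate 3, Tek was lowest at 5.59 (others 6.31 to 6.42) and Selp at 4.55 (5.23 to 5.46), while Egr3 was highest at 6.20 (5.45 to 5.52) and Egln3 at 15.58 (11.34 to 12.33). On miR-132 replicate 5, Cd93 was highest at 10.65 (8.55 to 8.88), and on miR-132 replicate 2, Hif1a was lowest at 13.72 (14.86 to 14.99). On control replicate 4, Hif1a was highest at 15.21 (14.82 to 14.86) and Pgk1, on its brighter feature, at 17.11 (16.44 to 16.56). On control replicate 2, Thbs2 was lowest at 14.10 (14.73 to 14.81).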

How the results depend on the processing

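No member passed limma's adjusted threshold in any setting, the lowest adjusted p being 0.168 for Vegfa without miR-132 replicate 3. Vegfa stayed lower in all settings, from -1.26 with the spike-in covariate to -0.50 without miR-132 replicate 4. With quantile normalization and miR-132 replicate 3 left out, a setting chosen after seeing the data, it was -0.79 (adjusted p of 0.292).

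The count of genes past adjustment ran from 0 to 55 when single arrays were left out (55 without miR-132 replicate 3), and the count at an unadjusted p under 0.05 from 933 to 2463. The latter was 2586 with no level filter and 2597 with quantile normalization and that array left out, where 0 genes passed adjustment. Of the genes at an unadjusted p under 0.05, 70% were lower, 51.9% after quantile normalization and 93.1% after median centring, which moved the median difference of all genes from -0.02 to -0.10.

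Signs turned after quantile normalization for Tek (0.01), Tie1 (0.0038) and Vcam1 (0.01), and after median centring for Angpt2 (-0.06), Vegfb (-0.04), Vegfc (-0.03) and Serpinf1 (-0.02). With the covariate, Tek was 0.04, Angpt2 -0.13, Vegfd -0.30 and Serpinf1 -0.06. With array weights, Tie1 was 0.05, Cd93 0.04, Vcam1 0.01 and Thbs2 0.04. Without miR-132 replicates 2 and 5, Angpt2 was -0.02 and Vcam1 0.02. With quantile normalization and miR-132 replicate 3 left out, Tek was 0.17, Pecam1 0.04, Cdh5 0.08, Tie1 0.09, Ptprb 0.04, Adamts1 0.07, Cd93 0.08, Vcam1 0.16 and Thbs2 0.30. The cause was not tested.

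Leaving out single arrays gave ranges of -0.20 to 0.10 for Tek, -0.13 to 0.14 for Angpt2, -0.01 to 0.07 for Vegfb, -0.01 to 0.12 for Vegfc, -0.13 to 0.05 for Tie1, -0.22 to 0.48 for Cd34, -0.55 to 0.0045 for Cd93, -0.29 to 0.07 for Vcam1, -0.44 to 0.08 for Thbs2, -0.02 to 0.20 for Serpinf1, -0.0035 to 0.32 for Rasa1 and -0.45 to -0.12 for Angpt2 minus Angpt1. Without miR-132 replicate 3 the list medians near 0 turned to 0.01 (other ligands and receptors), 0.03 (other endothelial genes) and 0.07 (inhibitors). Of the correlated pairs of members, 4 passed without the 2 farthest arrays, against 13.

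The labels number replicates 1 to 5 in both groups. Same-numbered arrays deviated together by r of only 0.16, 0.14, 0.04, 0 and -0.03, and 0 genes passed with the replicate block, which left Vegfa at -0.66 (limma's adjusted p of 0.658) and changed no member's call.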
